A study of Mus musculus with 8 samples.

Results

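The 10 genes described here encode subunits of SWI/SNF, a family of complexes that use ATP to slide or evict nucleosomes. They were listed by symbol, were matched through GENCODE M21, and are 10 of the 55487 gene identifiers in the tables. Smarca4 and Smarca2 are the alternative ATPases, also called BRG1 and BRM. Smarcb1, Smarcc1, Smarcc2, Smarcd1 and Smarcd2 belong to the core, Arid1a and Arid1b mark the BAF form, and Pbrm1 marks the PBAF form. In beta cells the transcription factor Pdx1 is known to bind both SWI/SNF, which opens chromatin at its targets, and the NuRD complex, whose helicase is Chd4.

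RNA was sequenced from flow-sorted pancreatic beta cells in 4 Control and 4 Chd4KO samples, and mice of both genotypes had received tamoxifen. The Chd4KO genotype is written Chd4Db in the series text; the strain, the age and the promoter that drives the deletion were not stated in the labels used here. Each title ends in a number that may name an animal, and these numbers do not interleave between the genotypes, so whatever goes with them, such as litter or day, cannot be told apart from genotype. No label says that the 4 samples of a group are separate mice, so p-values measure only the spread between these samples. Values are TPM, which are scaled to gene length and to a fixed total per library.

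Reads in genes, recovered from TPM and exon length, came to about 16392700 to 41014300 per Control library and about 14928100 to 20164400 per Chd4KO library. All 9 beta cell markers were present in every library, among them Ins2 at 221729 TPM or more and Pdx1 at 65.3 TPM or more. Chd4KO replicate 4 stood apart: Ins1 and Ins2 took 62.0% of its TPM, against 32.4 to 47.0% in the other 7 libraries, and 12702 genes reached 1 TPM there, against 14788 to 15923. All 10 SWI/SNF genes had their lowest TPM of the 8 libraries in it, as did 67.4% of the tested genes. A second scale was therefore added, in which each library is divided by the median ratio of its genes to their geometric mean over libraries. That divisor was 0.545 in Chd4KO replicate 4 and 0.96 to 1.20 in the other 7. On this scale 6 of the 10 genes were lowest among the Chd4KO libraries in replicate 4. Acinar markers summed to 43073 TPM in Chd4KO replicate 2 and to between 3.82 and 1718 TPM elsewhere. The 7 leukocyte markers summed to 17.2 to 29.1 TPM in Control and 33.8 to 79.0 TPM in Chd4KO. The 5 ductal markers summed to 85.6 to 117 TPM in Control and 166, 190, 71.1 and 55.7 TPM in Chd4KO replicates 1 to 4. By limma 2 of the 3 tested leukocyte markers were called higher and 1 of 3 tested ductal markers lower, against 2.97% of all tested genes called. The 5 alpha markers summed to 1480.5 to 2848 TPM in Control and 790 to 4144 TPM in Chd4KO. The 3 delta and PP markers summed to 1758 to 3834 TPM in Control and 1784 to 3724 TPM in Chd4KO. The part of these other cell types in the results below was not tested. The 5 endothelial markers summed to at most 6.62 TPM and the 4 mesenchymal markers to at most 0.653 TPM in any library, with Kdr and Cdh5 under 0.1 TPM throughout. In bulk RNA, fewer cells of a type and less RNA per cell cannot be told apart.

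The deleted gene Chd4 had 15.98, 13.4, 11.1 and 12.3 TPM in Control replicates 1 to 4 and 8.38, 6.18, 5.27 and 2.59 TPM in Chd4KO replicates 1 to 4. Every Chd4KO value lay below every Control value, although the change of -1.18 ± 0.29 (log2, SE) did not pass the test across all genes (limma adjusted p = 0.0725). It passed in 7 of 19 alternatives, among them median-of-ratios scaling (adjusted p = 0.0112) and the fit without Chd4KO replicate 4 (0.0318). The tables give 1 value per gene, so transcript from outside a deleted stretch is not separated.

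All 10 SWI/SNF genes were transcribed in every library, and none passed the test for a difference between Chd4KO and Control. The ATPase Smarca4 had the lowest Chd4KO mean relative to Control in TPM, with Control libraries averaging 61.5 ± 5.33 TPM (SD, n = 4) and Chd4KO libraries 36.04 ± 12.2 TPM (SD, n = 4), which is 58.6% of the Control mean. With median-of-ratios scaling Arid1b was lower still, at 65.6% of its Control mean against 68.0% for Smarca4, but with overlapping groups. The other 9 genes overlapped between the groups in TPM. The test was limma on log2(TPM + 1), with p-values adjusted over all 15189 genes that reached 1 TPM in 4 libraries, and 2.97% of those genes were called at an adjusted p under 0.05. Of the 10 genes 0 were called and 1, Smarca4, had an unadjusted p under 0.05, against 16.2% of all tested genes. The groups did not overlap for 1 of the 10 in the lower direction and for 0 in the higher, against 11.3% and 3.54% of all tested genes, so these shares are near the background. The median change of the 10 was -0.42 (log2), beside -0.25 for all tested genes, and 9 of the 10 changes were below 0, as were 74.8% of all. Without Chd4KO replicate 4 the median of the 10 was -0.06, beside -0.05 for all tested genes. In that fit 7 of the 10 changes were below 0, as were 8714 of the 15189 tested genes. With median-of-ratios scaling the median of the 10 was -0.15 and that of all tested genes -0.02. On that scale 7 of the 10 changes were below 0, as were 52.4% of all, and 3 were above. Besides Smarca4, those below 0 were Smarca2 (-0.17), Arid1a (-0.29), Arid1b (-0.60), Smarcc1 (-0.07), Smarcc2 (-0.19) and Smarcd2 (-0.13).

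**Figure D1:**
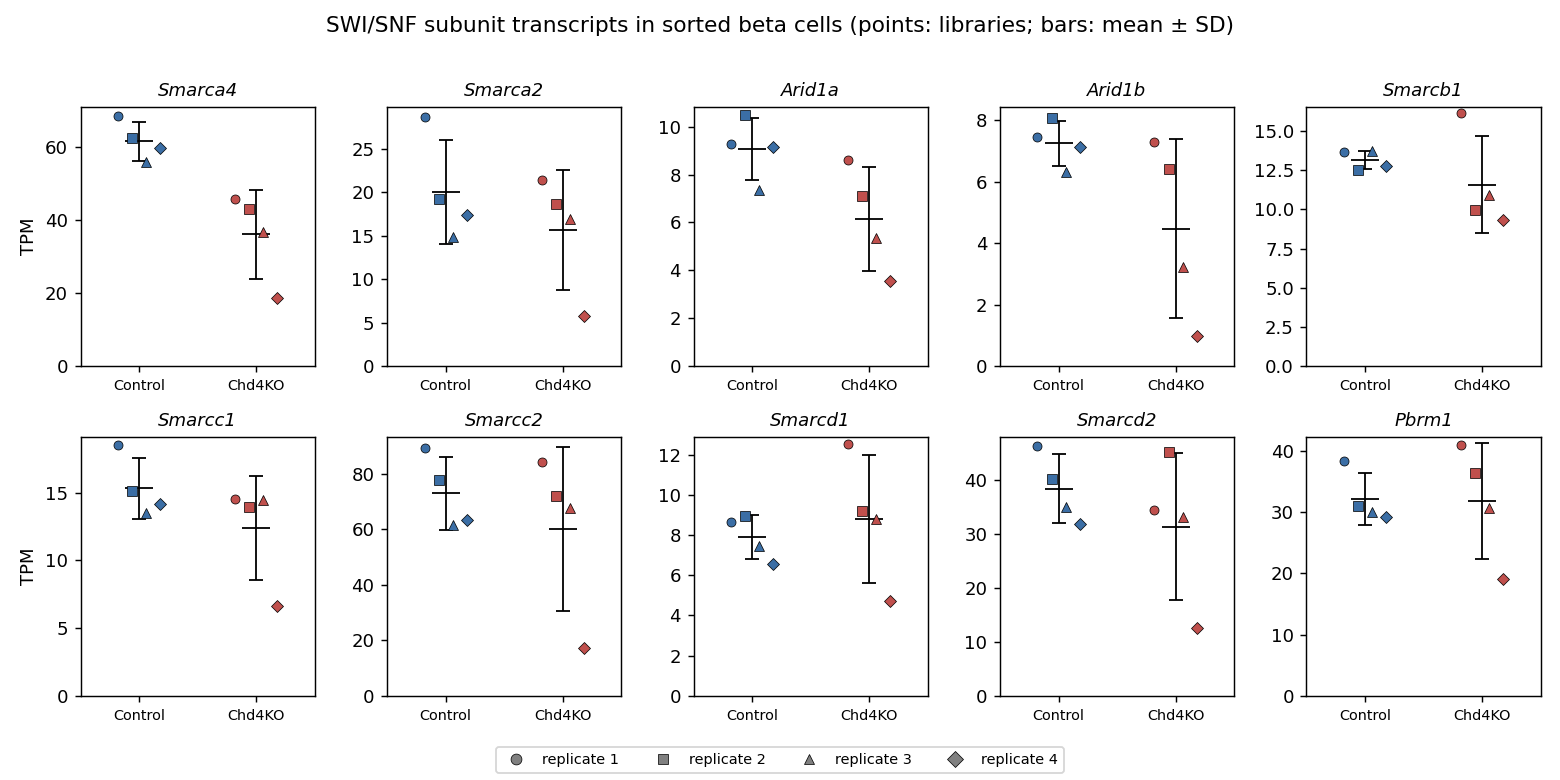
TPM (y axis, from 0) of each of the 10 genes in Control (blue) and Chd4KO (red); points are libraries, shaped by replicate, and bars give the mean ± SD of 4 libraries. Smarca4 is the panel in which the groups do not overlap, and the Chd4KO replicate 4 diamond is the lowest point in every panel.

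Smarca4 (ENSMUSG00000032187, mm10 chromosome 9, 21616169 to 21704230) encodes the ATPase with the higher TPM. It had 68.3, 62.4, 55.7 and 59.5 TPM in Control replicates 1 to 4 and 45.8, 42.98, 36.8 and 18.6 TPM in Chd4KO replicates 1 to 4. The highest Chd4KO library lay below the lowest Control library, and the least value rested on 1426 recovered reads. The change was -0.83 ± 0.28 (log2, SE; 95% interval -1.46 to -0.19, limma adjusted p = 0.191), or -0.57 relative to the median gene. Groups without overlap fix the exact permutation p at 0.0286, two-sided, the smallest that 4 against 4 libraries allow. That p is not adjusted and adds nothing to the lack of overlap, which 11.3% of all tested genes had in the lower direction. With median-of-ratios scaling the Control libraries lay at 56.7, 55.9, 51.7 and 55.6 and the Chd4KO libraries at 38.6, 38.4, 38.3 and 34.1. Replicates were close together on that scale, at 55.0 ± 2.22 and 37.3 ± 2.15 (SD, n = 4 each), so that Chd4KO had 68.0% of the Control mean. The change there was -0.55 ± 0.13 (95% interval -0.84 to -0.25) and passed the test (limma adjusted p = 0.048), as 4.77% of all genes did in either direction and 1.84% in the lower one. Over 19 alternatives the adjusted p of Smarca4 ran from 0.0322 to 0.391 and was under 0.05 in 3 of them. These were the scaling just given, quantile normalisation (0.0337, with 4.97% of all genes called) and array weights (0.0322, with 8.98% called). Without Chd4KO replicate 4 the change was -0.55 (adjusted p = 0.0648) and without Chd4KO replicates 2 and 4 it was -0.57 (adjusted p = 0.0976).

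Smarca2 (ENSMUSG00000024921, chromosome 19, 26605050 to 26778322) encodes the other ATPase, which takes the same place in the complex. It had 28.7, 19.3, 14.9 and 17.4 TPM in Control and 21.5, 18.6, 16.99 and 5.74 TPM in Chd4KO, replicates 1 to 4 in each. Replicates 1 to 3 of Chd4KO fell inside the Control range and replicate 4 below it. Its change of -0.43 ± 0.39 (log2, SE) had a 95% interval of -1.30 to 0.45, which holds both a fall as large as that of Smarca4 and a rise (limma adjusted p = 0.568). The change of Smarca2 was -0.04 without Chd4KO replicate 4. Divided within each library, Smarca4 was 2.38, 3.24, 3.74 and 3.41 times Smarca2 in Control and 2.13, 2.30, 2.17 and 3.24 times in Chd4KO. A ratio within a library does not depend on how TPM is scaled. Control averaged a ratio of 3.19 ± 0.581 (SD, n = 4) and Chd4KO one of 2.46 ± 0.523 (SD, n = 4), and Chd4KO replicate 4 lay among the Control libraries. The groups overlapped, and the difference of -0.38 (log2) did not pass the exact permutation test (p = 0.0571, two-sided, 0.229 adjusted over 4 paralogue ratios). Smarca4 made up 70.4 to 78.9% of the summed TPM of both ATPase genes in Control and 68.1 to 76.4% in Chd4KO. TPM divides by exon length, 6475 bases for Smarca4 and 14269 for Smarca2, and this share depends on those lengths. Recovered reads of Smarca4 were 3133, 7490, 4228 and 6148 in Control and 2149, 1966, 1720 and 1426 in Chd4KO. Those of Smarca2 were 2897, 5100, 2488 and 3968 in Control and 2220, 1880, 1750 and 971 in Chd4KO.

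The sequences before the start sites of both ATPase genes are shown because these paralogues are the pair whose values the comparison sets side by side. Each is 5′ to 3′ on the plus strand, from RefSeq on GRCm38.p6 (mm10), without bases of annotated exons, and capitals mark GC boxes (GGGCGG on either strand).
Smarca4, chr9:21615919-21616168: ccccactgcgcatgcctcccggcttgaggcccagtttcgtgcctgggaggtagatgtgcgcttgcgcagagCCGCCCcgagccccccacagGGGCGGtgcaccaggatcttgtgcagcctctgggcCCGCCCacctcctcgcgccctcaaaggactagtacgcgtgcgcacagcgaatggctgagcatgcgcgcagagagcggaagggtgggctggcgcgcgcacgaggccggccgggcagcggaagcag
Smarca2, chr19:26604910-26605049: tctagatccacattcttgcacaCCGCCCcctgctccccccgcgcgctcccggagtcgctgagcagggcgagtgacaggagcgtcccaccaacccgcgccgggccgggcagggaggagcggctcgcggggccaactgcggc
Smarca4 holds 3 GC boxes in the 250 bases shown and Smarca2 holds 1 in the 140 bases shown, so these counts cover unlike lengths. G and C make up 70.8% and 73.6% of the bases shown. The median over all 32851 RefSeq windows was 52.4%, taken on the whole 250 bases with exon bases included. All 10 genes matched a window, and Arid1a has 2. A GC box lies in the window of 8 of the 10 genes and in 32.7% of all windows. The CCAAT box (CCAAT) was in 0 of 10 and in 33.8% of windows. The homeodomain core TAATTA, a motif of the Pdx1 class, was in 0 of 10 and in 4.84% of windows. An E-box (CANNTG) was in 3 of 10, Smarca2 among them, and in 66.2% of windows. Both strands of the whole 250 bases were searched, exon bases included (the window of Pbrm1 lies wholly in annotated exons), and overlapping matches of a motif were counted separately.

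The BAF subunits Arid1a and Arid1b, large DNA-binding proteins of which a BAF complex holds either, were among the least abundant of the 10. Arid1a (ENSMUSG00000007880, chromosome 4, 133679008 to 133756769) had 9.28, 10.5, 7.35 and 9.17 TPM in Control and 8.61, 7.09, 5.37 and 3.57 TPM in Chd4KO. Replicate 1 of Chd4KO lay within the Control range and replicates 2 to 4 below it. The change was -0.54 ± 0.25 (log2, SE; 95% interval -1.10 to 0.03, limma adjusted p = 0.332). Arid1b (ENSMUSG00000069729, chromosome 17, 4994332 to 5347656) had 7.44, 8.06, 6.31 and 7.13 TPM in Control and 7.28, 6.39, 3.22 and 0.978 TPM in Chd4KO. Its Chd4KO libraries split, with replicates 1 and 2 at Control levels and replicates 3 and 4 well under them, the last on 146 reads. That spread, 65.1% of the mean against 10.1% in Control, was the widest of the 10 genes, and the change was -0.79 ± 0.41 (log2, SE; adjusted p = 0.379). Without Chd4KO replicate 4 the change of Arid1b was -0.37 and that of Arid1a -0.34. The ratio of Arid1a to Arid1b was 1.25, 1.30, 1.17 and 1.29 in Control and 1.18, 1.11, 1.67 and 3.65 in Chd4KO. Control libraries lay close together and Chd4KO libraries lay on both sides of them. The difference of 0.43 (log2) did not pass (exact permutation p = 0.4, adjusted 0.533), and without Chd4KO replicate 4 it was 0.06.

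Smarcb1, Smarcc1 and Smarcc2 form the core on which the other subunits assemble. Smarcb1 (ENSMUSG00000000902, chromosome 10, 75896769 to 75921617) was the steadiest of the 10 in Control, at 13.6, 12.5, 13.7 and 12.7 TPM, and had 16.1, 9.94, 10.9 and 9.34 TPM in Chd4KO. Replicate 1 of Chd4KO lay above all Control libraries and the other 3 below them. Smarcc1 (ENSMUSG00000032481, chromosome 9, 110117708 to 110240178) had 18.5, 15.1, 13.5 and 14.1 TPM in Control and 14.5, 13.97, 14.5 and 6.63 TPM in Chd4KO. Only replicate 4 of its Chd4KO libraries lay outside the Control range. Smarcc2 (ENSMUSG00000025369, chromosome 10, 128459248 to 128490482), the neighbour of Smarcc1 in the core, was the most abundant of the 10. It had 89.5, 77.7, 61.5 and 63.4 TPM in Control and 84.3, 72.0, 67.7 and 17.3 TPM in Chd4KO, again with replicate 4 alone outside. The changes were -0.20 ± 0.20 for Smarcb1, -0.33 ± 0.26 for Smarcc1 and -0.47 ± 0.46 for Smarcc2 (log2, SE; limma adjusted p = 0.605, 0.523 and 0.592). Smarcb1 turned to 0.07 with median-of-ratios scaling and Smarcc2 to 0.04 without Chd4KO replicate 4, so the direction of both depended on the setting. Without that library the change was -0.08 for Smarcc1 and -0.11 for Smarcb1. Smarcc1 was 0.194 to 0.223 times Smarcc2 in Control, and 0.172, 0.194, 0.214 and 0.384 times in Chd4KO (difference 0.12 on the log2 scale, exact permutation p = 0.914, adjusted 0.914). Without Chd4KO replicate 4 that difference was -0.13.

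Smarcd1 and Smarcd2 are alternative subunits that link the complex to transcription factors. Smarcd1 (ENSMUSG00000023018, chromosome 15, 99702129 to 99713991) had 8.63, 8.93, 7.48 and 6.55 TPM in Control and 12.5, 9.21, 8.81 and 4.74 TPM in Chd4KO. It was the only one of the 10 with a mean above Control, 8.82 ± 3.18 against 7.89 ± 1.09 TPM (SD, n = 4 each), and its change of 0.09 ± 0.27 (log2, SE) did not pass (limma adjusted p = 0.869). Without Chd4KO replicate 4 that change was 0.32 and without Chd4KO replicate 1 it was -0.09. With median-of-ratios scaling it lay at 7.16, 7.99, 6.94 and 6.12 in Control and 10.5, 8.22, 9.17 and 8.70 in Chd4KO. The groups did not overlap on that scale, with a change of 0.33 ± 0.15 that did not pass either (adjusted p = 0.264). The predicted genes Gm17349 and Gm34939 on the opposite strand cover 7.13% and 5.56% of the Smarcd1 exon bases, and the libraries do not mark strand. Smarcd2 (ENSMUSG00000078619, chromosome 11, 106263179 to 106272972) had 46.4, 40.3, 35.1 and 31.8 TPM in Control and 34.4, 45.2, 33.2 and 12.6 TPM in Chd4KO. Replicates 1 to 3 of its Chd4KO libraries fell within the Control range (change -0.40 ± 0.36, adjusted p = 0.564), and without Chd4KO replicate 4 its change was -0.03. Smarcd1 was 0.186, 0.222, 0.213 and 0.206 times Smarcd2 in Control and 0.363, 0.204, 0.265 and 0.376 times in Chd4KO. Chd4KO replicate 2 was the library that lay inside the Control range, and the difference of 0.51 (log2) did not pass (exact permutation p = 0.114, adjusted 0.229). Of the summed TPM of Smarcd1, Smarcd2 and their paralogue Smarcd3, Smarcd1 made up 13.1 to 14.7% in Control and 15.1 to 21.96% in Chd4KO. The shares of the other members of that sum overlapped between the groups. Smarcd2 made up 62.3 to 70.5% in Control and 50.3 to 73.9% in Chd4KO. Smarcd3 made up 16.4 to 24.5% in Control and 11.02 to 31.5% in Chd4KO. A difference in these shares was not tested, and no background share was computed for them.

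**Figure D2:**
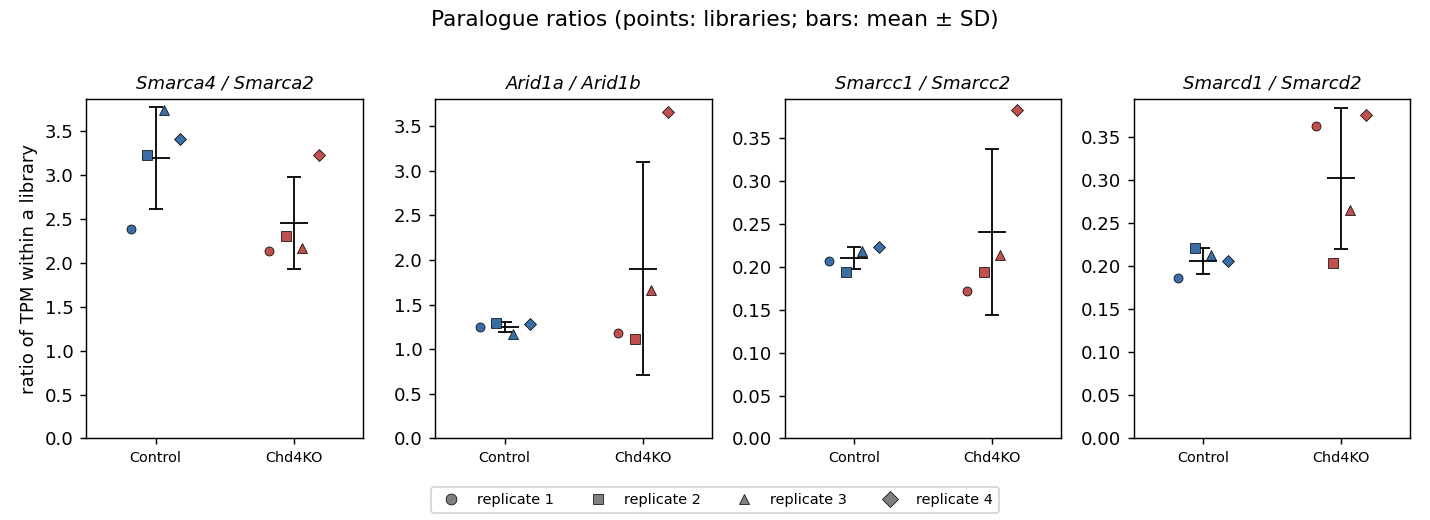
Ratio of TPM within each library (y axis, from 0) for the 4 pairs of paralogues; points are libraries, shaped by replicate, blue for Control and red for Chd4KO, and bars give the mean ± SD of 4 libraries. The groups overlap in all 4 panels, and Chd4KO replicate 4 is the highest Chd4KO point in each.

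Pbrm1 (ENSMUSG00000042323, chromosome 14, 31019138 to 31121592) encodes polybromo, a subunit of PBAF that reads acetylated histones. It had 38.3, 31.1, 30.1 and 29.2 TPM in Control and 41.0, 36.4, 30.7 and 19.1 TPM in Chd4KO, where replicate 1 lay above and replicate 4 below the Control range. Its means lay close together, at 32.2 ± 4.17 and 31.8 ± 9.47 TPM (SD, n = 4 each), with a change of -0.06 ± 0.25 and a 95% interval of -0.63 to 0.50 (log2, limma adjusted p = 0.903). Leaving out Chd4KO replicate 4 gave a change of 0.16. With median-of-ratios scaling the Control libraries spanned 27.3 to 31.8 and the Chd4KO libraries 31.9 to 34.98, which no longer overlapped, and the change was 0.22 ± 0.13 (adjusted p = 0.421). On that scale the groups were apart for 3 of the 10 genes, Smarca4 lower and Smarcd1 and Pbrm1 higher, against 7.7% and 7.85% of all tested genes in those directions.

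**Figure D3:**
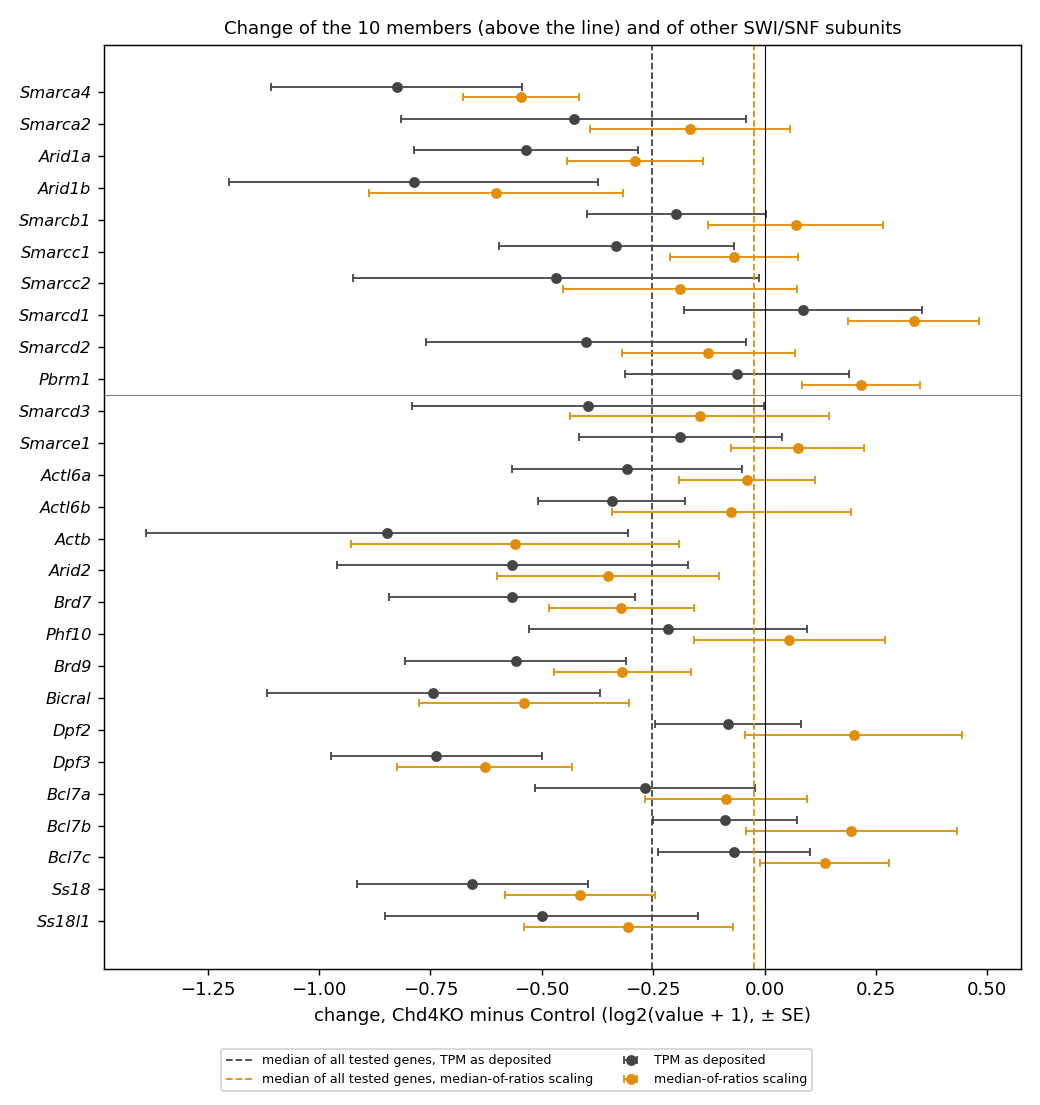
Change from Control to Chd4KO (x axis, log2 of value + 1, ± SE) of the 10 genes, above the grey line, and of 17 other SWI/SNF subunits; grey points use TPM as deposited, orange points median-of-ratios scaling, and dashed lines mark the median of all tested genes on each scale. Of the 10, Smarca4, Arid1a and Arid1b lie left of the median of the same scale by more than their SE on both scales. Smarcd1 lies right of it by more than its SE on both, and Pbrm1 with median-of-ratios scaling but not in TPM. Some of the 17 others also lie apart from it by more than their SE on both scales, Dpf3, Ss18 and Brd9 among them to the left.

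Within a library, Smarca4 was lower relative to Pbrm1, Smarcd1 and Smarcc1 in every Chd4KO library than in any Control library. These ratios were picked after their values were seen, so they are a description with no test. Smarca4 was 1.78, 2.01, 1.85 and 2.04 times Pbrm1 in Control and 1.12, 1.18, 1.20 and 0.976 times in Chd4KO. It was 6.99 to 9.08 times Smarcd1 in Control and 3.66 to 4.67 times in Chd4KO. It was 3.68 to 4.21 times Smarcc1 in Control and 2.54 to 3.16 times in Chd4KO. The groups did not overlap in these 3 of the 9 ratios, and did not overlap in this direction for 37.8% of the 14531 tested genes above 0 in every library, so a share of that size is the background for Smarca4. Against Chd4 itself the ratio went the other way, from 4.27 to 5.01 in Control to 5.46 to 6.98 in Chd4KO replicates 1 to 3 and 7.18 in replicate 4. Smarca4 was higher without overlap in this way relative to 1.11% of genes. Set against all genes in the same way, Smarcd1 was higher without overlap for 22.4% of genes and 5 of the 9 other members (Smarca4, Arid1a, Arid1b, Smarcc1 and Smarcc2). Pbrm1 was higher for 16.7% of genes and 3 of the 9 (Smarca4, Arid1a and Arid1b). Arid1b was lower for 18.7% of genes and 2 of the 9 (Smarcd1 and Pbrm1), and Arid1a for 13.0% and the same 2. Smarca2, Smarcb1, Smarcc1, Smarcc2 and Smarcd2 were lower for 5.24 to 8.39% of genes and higher for 2.80 to 4.90%.

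**Figure D4:**
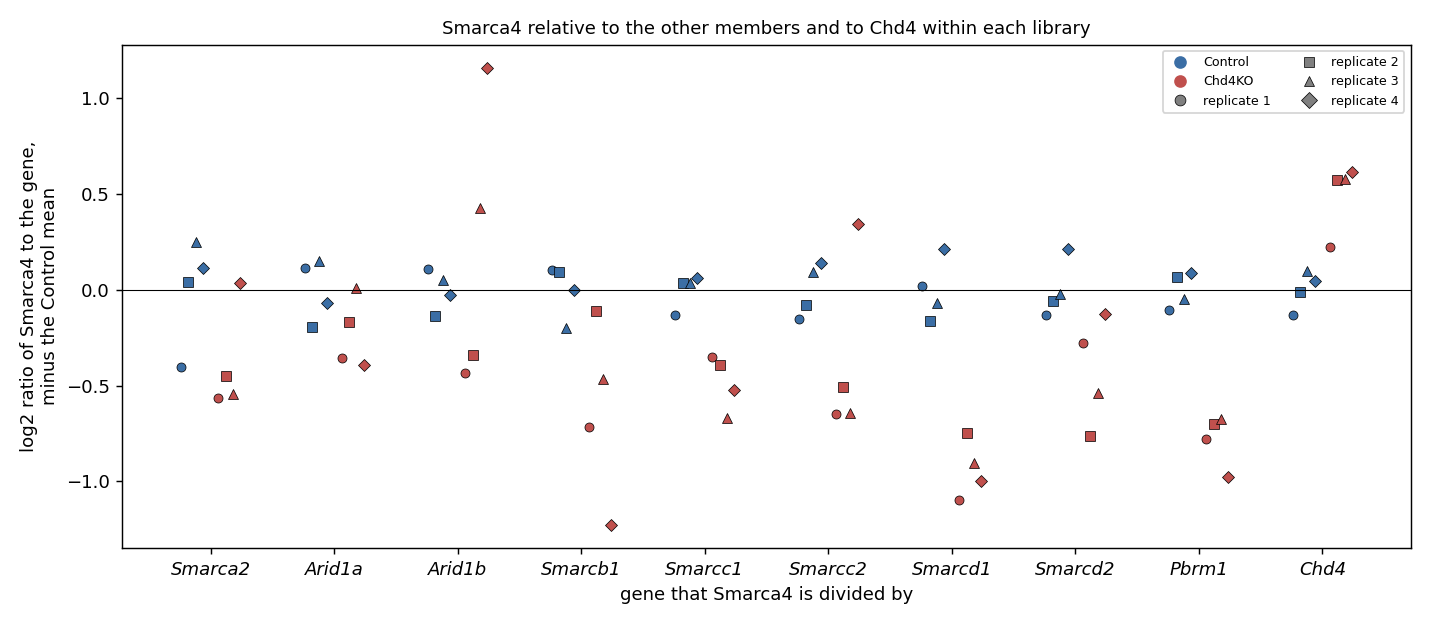
Log2 ratio of Smarca4 to each other gene within a library, minus its Control mean (y axis), for the 9 other members and Chd4 (x axis); blue points are Control and red points Chd4KO libraries, shaped by replicate. Red points lie below all blue ones for Smarcc1, Smarcd1 and Pbrm1 and above them for Chd4.

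The order of the levels in TPM, which rests on the exon length used for each gene, was nearly kept. In Control it ran from Smarcc2 (73.04 ± 13.1 TPM) and Smarca4 (61.5 ± 5.33) through Smarcd2 (38.4 ± 6.37), Pbrm1 (32.2 ± 4.17), Smarca2 (20.1 ± 6.01), Smarcc1 (15.3 ± 2.26) and Smarcb1 (13.1 ± 0.595) to Arid1a (9.07 ± 1.29), Smarcd1 (7.89 ± 1.09) and Arid1b (7.24 ± 0.731; SD, n = 4 each). Neighbours differed beyond their ranges at 3 steps, from Smarca4 to Smarcd2, from Pbrm1 to Smarca2 and from Smarcb1 to Arid1a, and overlapped at the other 6. In Chd4KO every neighbour overlapped. Pbrm1 and Smarcd2 changed places there, with Pbrm1 higher in 2 of 4 libraries. Smarcd1 stood above Arid1a in 4 of 4 Chd4KO libraries, whereas Arid1a stood above Smarcd1 in 3 of 4 Control libraries.

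Of 19 further SWI/SNF subunits 17 were tested and 0 were called by limma, against 2.97% of all tested genes, and 2 had an unadjusted p under 0.05, against 16.2%. Their median change was -0.40 (log2), beside -0.25 for all tested genes, and without Chd4KO replicate 4 it was -0.15, beside -0.05. Dpf3, a histone reader found in BAF of muscle and nerve, had 1.74, 1.55, 2.16 and 2.52 TPM in Control and 0.816, 1.41, 0.885 and 0.220 TPM in Chd4KO (change -0.74 ± 0.24, adjusted p = 0.166). All its Chd4KO values lay below Control on both scales, on as few as 11 reads, and it passed the test in 1 of 18 alternatives, that with array weights (adjusted p = 0.0465). Ss18, shared by BAF and the smaller ncBAF form, was at 8.93 ± 0.993 and 5.57 ± 2.22 TPM (adjusted p = 0.258). Brd9, which marks ncBAF, was at 8.56 ± 0.707 and 5.72 ± 1.88 TPM (SD, n = 4 each, adjusted p = 0.31) and did not overlap between the groups in TPM. The neuronal actin-like subunit Actl6b, named after its values were seen, did not overlap in TPM either, at 9.56 to 11.4 and 6.53 to 8.59 TPM. That makes 3 of the 17 lower without overlap, against 11.3% of all tested genes. With median-of-ratios scaling 1 of the 17, Dpf3, was apart, against 7.7% of all, and Actl6b overlapped, with 15.8 in Chd4KO replicate 4. The most abundant were Actb, the actin that is also a cytoskeletal protein, at 555 ± 127 and 377 ± 246 TPM, Bcl7b at 52.6 ± 4.39 and 49.3 ± 3.66 TPM, and Dpf2 at 33.3 ± 2.82 and 31.4 ± 2.79 TPM. Dpf1, the neuronal counterpart of Dpf2, stayed at or under 0.257 TPM in all 8 libraries and was not tested, and neither was the ncBAF gene Bicra, at or under 1.02 TPM, which was named after its values were seen. No further subunit was called with median-of-ratios scaling.

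Other remodelling families had like counts. Of 15 NuRD genes, Chd4 included, 0 were called, with a median change of -0.06 (log2), and of 13 tested ISWI and other CHD genes 0 were called, with a median of -0.40, beside 2.97% of all tested genes called and a median of -0.25. With median-of-ratios scaling these medians were 0.23 and -0.18, and Chd4 was the 1 gene called in the 2 lists, beside 4.77% of all tested genes. No difference between these lists and SWI/SNF was tested.

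Pdx1 itself, the factor that recruits SWI/SNF, had 131, 129, 106 and 105 TPM in Control and 96.6, 65.3, 122 and 94.5 TPM in Chd4KO. The groups overlapped (change -0.34 ± 0.22, limma adjusted p = 0.463), and with median-of-ratios scaling the change was -0.05. Of 9 genes known as Pdx1 targets, Pdx1 included, 2 fell and 7 did not pass, against 1.44% of all tested genes that fell. Mafa, an activator of the insulin genes, had 154 to 183 TPM in Control and 20.4 to 69.8 TPM in Chd4KO (adjusted p = 0.0229). Slc2a2 encodes GLUT2, through which glucose enters mouse beta cells, and had 145 to 207 and 46.6 to 98.1 TPM (adjusted p = 0.031). Neither range overlapped between the groups. Of the 9 genes 3, Mafa, Slc2a2 and Nkx6-1, were lower without overlap in TPM, against 11.3% of all tested genes. Nkx6-1, named after its values were seen, had 84.4 to 106 and 47.2 to 66.6 TPM (limma adjusted p = 0.0554). With median-of-ratios scaling 2 of the 9, Mafa and Slc2a2, were lower without overlap, against 7.7%. The list was chosen with earlier results of these data known, so its counts are a description with no test. Mafa and Slc2a2 kept the call in 14 and 12 of 19 alternatives, respectively.

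The genes with the pattern most like that of Smarca4 over the 8 libraries were Sptlc1, a subunit of serine palmitoyltransferase, Ap1s2, a clathrin adaptor subunit, and the helicase Dhx34. Likeness was the root mean square difference of log2(TPM + 1), each gene centred on its own mean, and was 0.07, 0.07 and 0.08 for these 3 among 8367 genes with a median of 0.41. Sptlc1 had 45.7, 38.1, 37.6 and 38.4 TPM in Control and 29.4, 30.6, 25.3 and 13.0 TPM in Chd4KO, and it did not pass the test either (change -0.74 ± 0.27, limma adjusted p = 0.223). Of the 9 other members Arid1a came closest, at a distance of 0.21, and Smarcd1 was farthest, at 0.47. Chd4, at 0.20 and rank 402, was nearer to Smarca4 than any of them. Closest to Smarca2 were Ankib1, a ring finger protein, the splicing factor Prpf8 and the ubiquitin ligase Rnf111, at 0.08, 0.09 and 0.09. Among the members Smarcc2 came closest to Smarca2, at 0.18 and rank 215. All genes share the same 8 libraries, and the low TPM of Chd4KO replicate 4 enters every such distance.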

How the data were processed

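Per the labels' protocols, RNA of high integrity from sorted beta cells went through a low-input SMART-Seq kit and Nextera XT; such libraries do not mark strand. The authors deposited TPM per gene and library. FastQC, Trimmomatic, HISAT2, HTSeq and DESeq2 with mm10 are named in the submitters' processing notes, without versions or roles, and the labels name no annotation. GENCODE M21 matched 55227 of 55487 identifiers (99.5%). TPM multiplied by exon length gave whole reads, within 0.05 of a read, for 98.5 to 98.6% of values; these served for depth and for 1 alternative.

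Differences were tested on log2(TPM + 1), a scale that understates changes of low genes, with limma (version 3.58.1; R version 4.3.3), for genes with at least 1 TPM in at least 4 libraries, with Benjamini-Hochberg adjustment at 0.05. All 10 members passed that filter. The fit was also run on simulated data with known changed genes, drawn from the mean Control profile. No simulated library had a shifted composition like that of Chd4KO replicate 4, so that run cannot show how the fit handles one. Paralogue ratios used exact permutation tests (Python 3.11.15, scipy 1.17.1; numpy 2.4.6, pandas 2.3.3, matplotlib 3.10.9). Alternatives that left out libraries kept the same tested genes. The genes named are the 10 members, Chd4, Pdx1, called Pdx1 targets, the 3 further subunits with the smallest adjusted p, the 3 with the highest mean, those under 1 TPM throughout (Dpf1), and the 3 genes nearest in pattern to each ATPase among those with a mean of at least 5 TPM. Actl6b, Bicra and Nkx6-1 were named outside this rule. Members and lists were chosen with earlier results of these data known.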

Additional observations from a re-analysis of the deposited data

Results flagged for a closer look

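Among 28 sets of 4 replicate values (TPM of the 10 genes and the 4 paralogue ratios), 2 had a library far from the rest; chance flags about 1 in 20. Smarcc1 was at 6.63 TPM in Chd4KO replicate 4 and at 13.97 to 14.5 TPM in the other 3 Chd4KO libraries. The ratio of Smarca4 to Smarca2 was 3.24 in Chd4KO replicate 4 and 2.13 to 2.30 in the other 3.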

How the results depend on the processing

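Of the 10 genes 0 were called in 16 of 19 alternatives and 1, Smarca4, in the other 3. It was 1 with median-of-ratios scaling (Smarca4 change -0.55), 1 with quantile normalisation (-0.64) and 1 with array weights (-0.61), where Chd4KO replicate 4 had a weight of 0.0863. The number of called genes over the whole table was 451. It was 220 with a minimum of 5 TPM, 724 with median-of-ratios scaling (444 higher, 280 lower, against 233 and 218), 755 with quantile normalisation (466 higher, 289 lower), 1364 with array weights, 274 with the replicate block and 785 without Chd4KO replicates 2 and 4. Leaving out 1 library gave 171 (without Control replicate 4) to 829 (without Chd4KO replicate 4); it was 237, 175 and 219 without Control replicates 1, 2 and 3 and 242 without Chd4KO replicate 3. The cause was not tested.

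Pbrm1 turned from -0.0617 to 0.217 with median-of-ratios scaling, 0.0899 with scaling without hormones and mitochondrial genes, 0.147 with quantile normalisation, 0.111 with array weights, 0.0491 with voom on recovered reads, 0.0229 without Control replicate 1, 0.157 without Chd4KO replicate 4 (from -0.198 over single libraries left out) and 0.144 without Chd4KO replicates 2 and 4. Smarcb1 turned from -0.198 to 0.0698 with median-of-ratios scaling, 0.064 with quantile normalisation and 0.0146 without Chd4KO replicates 2 and 4. Smarcc2 turned from -0.469 to 0.0281 with array weights and 0.065 without Chd4KO replicates 2 and 4, and ran from -0.699 to 0.0421 (without Chd4KO replicate 4) over single libraries left out. Smarcd1 ran from -0.0888 (without Chd4KO replicate 1) to 0.323. Dpf2 and Bcl7b turned to 0.2002 and 0.195 with median-of-ratios scaling, 0.0717 and 0.0655 with scaling without hormones and mitochondrial genes, 0.0987 and 0.0776 with quantile normalisation, and 0.0313 and 0.0267 with voom. The Smarcc1 to Smarcc2 difference of 0.12 turned to -0.135 without Chd4KO replicates 2 and 4, and over single libraries left out it ran from -0.129 to 0.257.

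The other 3 paralogue ratios kept their direction and stayed outside the threshold in each of 11 alternatives. With 1 library left out an exact test cannot give p below 0.0571, and the replicate block on 4 pairs not below 0.125. No label says that replicate numbers pair the samples. Deviations of same-numbered libraries correlated at -0.02, 0.43, 0.08 and 0.04, and the 0.43 of replicate 2 was the highest of any Control and Chd4KO pair. The replicate block changed no call among the 10 genes. Slc2a2 lost its call under the block (adjusted p = 0.0734). Groups without overlap in the higher direction went from 0 to 2 of the 10 genes with median-of-ratios scaling, a count added after the data were seen. Over all tested genes that share went from 3.54% to 7.85%. Depth limits the precision of low genes: Arid1b and Dpf3 rest on 146 and 11 recovered reads at their lowest.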
